A study of Triticum aestivum with 6 samples.

Results

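Aux/IAA proteins and auxin response factors (ARFs) are the paired protein families at the end of the auxin signalling chain, and their genes were followed here in wheat (Triticum aestivum) roots given nitrate together with abscisic acid (ABA). Members were chosen by the protein name that the deposited table pairs with each gene. A gene was taken where that name began with "Auxin-responsive protein IAA" or with "Auxin response factor". This gave 147 of the 83219 genes of the table, 76 of them Aux/IAA genes and 71 of them ARF genes. The choice used names only and no expression value. The names are best matches to UniProt proteins, mostly of rice, so IAA13 or ARF16 below means a wheat gene matched to the protein of that name, and 5 of the 147 genes also match a second protein.

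The 2N+ABA group had 3 root samples of the wild-type line JW1 placed for 3 h in medium with 2 mM potassium nitrate and 5 µM ABA. The 0N+ABA group had 3 root samples of the same line placed for 3 h in medium with potassium chloride in place of nitrate and the same 5 µM ABA. Before that, seedlings of both groups had 3 days of germination, removal of the endosperm, 3 days on 2 mM nitrate and 2 days free of nitrogen. Groups without ABA were not analysed here, so no value below measures an effect of ABA, and nitrate cannot be told apart from the chloride that replaced it. Separate cultures are not mentioned in the labels. The p-values therefore reflect the spread among these 6 samples, which may be technical.

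Auxin acts by removing a brake. Aux/IAA proteins bind ARFs and bring TOPLESS co-repressors to the genes that ARFs occupy. In the presence of auxin, F-box receptors of the TIR1/AFB type bind Aux/IAA proteins and mark them for destruction, which frees the ARFs. Many Aux/IAA genes are themselves induced by auxin, so they act as a feedback loop, and in roots the pathway sets cell division in the tip and the formation of lateral roots. ARFs with a glutamine-rich middle region activate their targets, and the others mostly repress them. Small RNAs limit several ARF transcripts, namely miR160, miR167 and the trans-acting small RNAs made from TAS3. The ARFs below are ordered by these classes as known in rice, an order set after the values had been seen.

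The libraries held 16907317 to 17735564 estimated counts each. Of all 53862 genes that passed the filter on low counts, 2.25% were called at an adjusted p under 0.05 by edgeR's quasi-likelihood test, 1.67% higher and 0.579% lower in 2N+ABA. The library 0N+ABA replicate 2 stood apart from the other 5. On the first principal component it lay at -1.28, while the 2N+ABA libraries lay at 38.8 to 59.9 and 0N+ABA replicates 1 and 3 at -63.8 and -74.1. Without it 8.38% of genes were called, so results are given with and without it where they differ. One label of the samples names leaf tissue. Genes of photosynthetic cells had a median of 0.573 TPM over 188 genes and summed to 230 to 404 TPM in 2N+ABA and 272 to 420 TPM in 0N+ABA. Of 93 tested, 0 were called higher and 1 lower by edgeR, against 1.67% and 0.579% of all genes. At an unadjusted p under 0.05, 5 were higher and 10 lower, against 8.62% and 7.77% of all genes. Their median log2 fold change (2N+ABA over 0N+ABA) was -0.25. The 156 genes of the root list summed to 1122 to 1287 TPM in 2N+ABA and 973 to 1311 TPM in 0N+ABA, and among them 7 genes for Casparian strip membrane proteins, which mark the endodermis, to 158 to 191 TPM in 2N+ABA and 117 to 198 TPM in 0N+ABA. The 18 nicotianamine synthase genes of the root list summed to 58.0 to 69.5 TPM in 2N+ABA and 52.2 to 88.8 TPM in 0N+ABA. By edgeR 0 of 99 tested root-list genes were called. At an unadjusted p under 0.05, 10 were higher and 3 lower, against 8.62% and 7.77% of all genes. Without 0N+ABA replicate 2, 19 of 100 root-list genes were called higher, against 5.19% of all genes. Of the 19, 5 were Casparian strip genes, and 0 of 7 tested nicotianamine synthase genes were called. The part of the root-list and photosynthetic genes in the results below was not tested.

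Most members of both families differed little between nitrate and no nitrate. Of 59 tested Aux/IAA genes, 0 were called higher and 1 was called lower by edgeR's quasi-likelihood test, and the same counts came from DESeq2 and limma-voom. The one called gene was matched to IAA2. Of 60 tested ARF genes, 0 were called higher and 1, matched to ARF16, was called lower by edgeR, again with the same counts from DESeq2 and limma-voom. At an unadjusted p under 0.05, 0 Aux/IAA genes were higher and 7 lower, and 1 ARF gene was higher and 14 were lower. Over all genes tested, 8.62% were higher and 7.77% lower at that level. With 1 lower call in each family, the calls say nothing about either family as a whole against the background of 0.579%.

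The size of the differences was small in both families. The log2 fold changes (2N+ABA over 0N+ABA) ran from -0.95 to 0.55 over the tested Aux/IAA genes, with a median of -0.13. They ran from -0.87 to 0.46 over the tested ARF genes, with a median of -0.15, while the median of all genes tested was -0.02. Without 0N+ABA replicate 2 the medians lay nearer to no change, at -0.05 for Aux/IAA genes, -0.11 for ARF genes and -0.008 for all genes. Below 0 were 40 of 59 Aux/IAA genes and 42 of 60 ARF genes, against 52.3% of all genes tested. The 95% interval of the log2 fold change lay wholly inside a 2-fold change either way for 44 of 59 Aux/IAA genes and 53 of 60 ARF genes, against 77.6% of all genes. For the other 15 and 7 genes a 2-fold difference lay within reach of the interval. A further 17 Aux/IAA and 11 ARF genes had too few counts to be tested, and 1 of them, an IAA4 gene on chromosome 1B (TraesCS1B02G100300), had no count in any library.

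**Figure D1:**
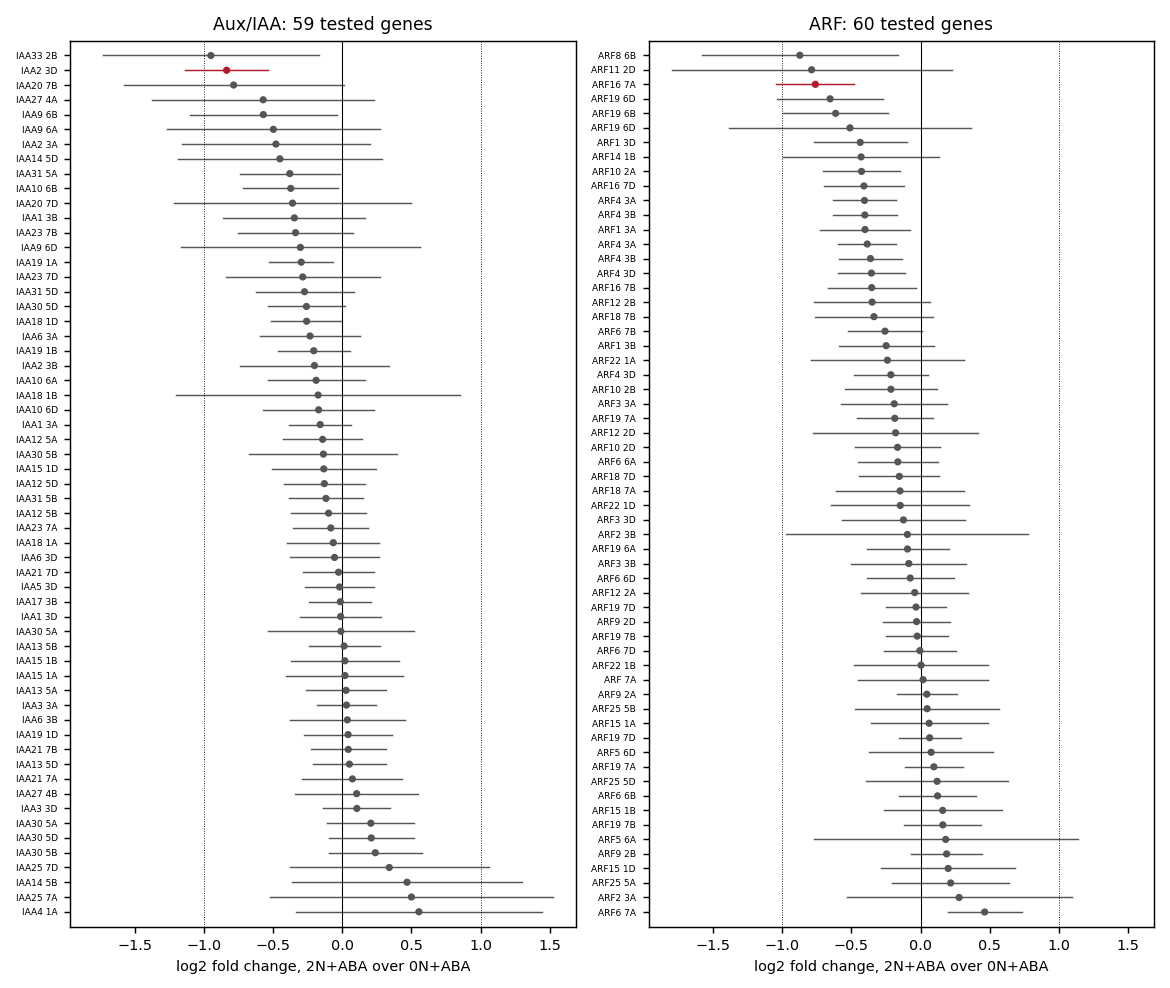
Log2 fold change of each tested gene, 2N+ABA over 0N+ABA, with its 95% interval, for 59 Aux/IAA genes (left) and 60 ARF genes (right), labelled by matched protein and chromosome and sorted by fold change. Red marks the 2 genes called by edgeR at an adjusted p under 0.05, and dotted lines mark a 2-fold change, which the fitted value of no gene reaches.

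Aux/IAA transcripts as a whole were far more abundant than ARF transcripts. TPM, a share of all transcripts corrected for gene length, was used for levels because it allows genes to be compared. The Aux/IAA genes summed to 1287, 1350 and 1388 TPM in the 2N+ABA libraries, against 1409, 1465 and 1429 TPM in the 0N+ABA libraries. Every 2N+ABA sum was below every 0N+ABA sum, and the 2N+ABA mean was 0.935 times the 0N+ABA mean. The ARF genes summed to 300.0, 278 and 305 TPM in 2N+ABA, against 334, 337 and 350.3 TPM in 0N+ABA. These sums did not overlap either, with a ratio of 0.865. A sum over a family was not tested. In whole roots, fewer cells that express a gene and less RNA per cell cannot be told apart.

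Within the Aux/IAA family, 3 of 26 protein names held 50.3% of the summed TPM. The 3 genes matched to IAA13 held the highest levels of the family. Rice plants that carry a stabilised form of IAA13 make fewer lateral roots. The D copy, TraesCS5D02G392000, had 117, 108 and 116 TPM in 2N+ABA, against 115, 126 and 100.4 TPM in 0N+ABA. The A copy, TraesCS5A02G382600, had 96.3, 100.5 and 104 TPM in 2N+ABA, against 107, 113 and 86.2 TPM in 0N+ABA. The B copy, TraesCS5B02G386800, had 85.5, 81.2 and 84.3 TPM in 2N+ABA, against 91.2, 91.3 and 75.4 TPM in 0N+ABA. In all 3 copies the 2N+ABA libraries lay inside the range of the 0N+ABA libraries. The log2 fold changes were 0.05 (interval -0.21 to 0.32), 0.03 (-0.26 to 0.32) and 0.01 (-0.24 to 0.27) for the D, A and B copies, so each interval leaves out a change of 1.5-fold.

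The next names in order were IAA30, IAA12, IAA15, IAA31 and IAA3. IAA13, IAA30, IAA12 and IAA31 all lie on chromosomes 5A, 5B and 5D, which held 20 genes and 57.3% of the summed Aux/IAA TPM. The 6 genes matched to IAA30 form 2 sets on these chromosomes. The set with gene numbers close to IAA31 was the higher, with 65.4 ± 3.83 TPM in 2N+ABA and 58.7 ± 9.96 TPM in 0N+ABA for TraesCS5A02G058600 (SD, n = 3 each). Its B copy, TraesCS5B02G058500, averaged 63.7 ± 6.35 TPM in 2N+ABA and 56.1 ± 8.41 TPM in 0N+ABA, and its D copy, TraesCS5D02G069300, averaged 60.4 ± 6.40 TPM in 2N+ABA and 54.2 ± 7.53 TPM in 0N+ABA. All 3 means were above those of 0N+ABA by less than 1 SD of the 0N+ABA libraries, and none was called (edgeR adjusted p = 0.517, 0.477 and 0.498). Their log2 fold changes were 0.21, 0.24 and 0.21 with all libraries and 0.36, 0.34 and 0.30 without 0N+ABA replicate 2. None was called in that setting either (edgeR adjusted p = 0.0883, 0.212 and 0.218).

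The nearby IAA31 genes had lower means in 2N+ABA. TraesCS5A02G058700, whose gene number follows that of the IAA30 gene on chromosome 5A, had 27.4, 26.7 and 32.1 TPM in 2N+ABA, against 38.5, 46.8 and 30.9 TPM in 0N+ABA. The groups overlapped, and the log2 fold change of -0.38 (SE 0.159) did not pass (edgeR adjusted p = 0.285). The other two IAA31 genes had log2 fold changes of -0.27 on 5D and -0.12 on 5B, also not called. Without 0N+ABA replicate 2 the log2 fold changes of IAA31 were smaller, at -0.21 on 5A, -0.13 on 5D and -0.03 on 5B. Whether IAA30 and IAA31 genes differ in their change was not tested. The 3 IAA12 genes lay between 35.3 and 53.6 TPM in 2N+ABA and between 45.6 and 65.4 TPM in 0N+ABA, with log2 fold changes from -0.14 to -0.10.

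**Figure D2:**
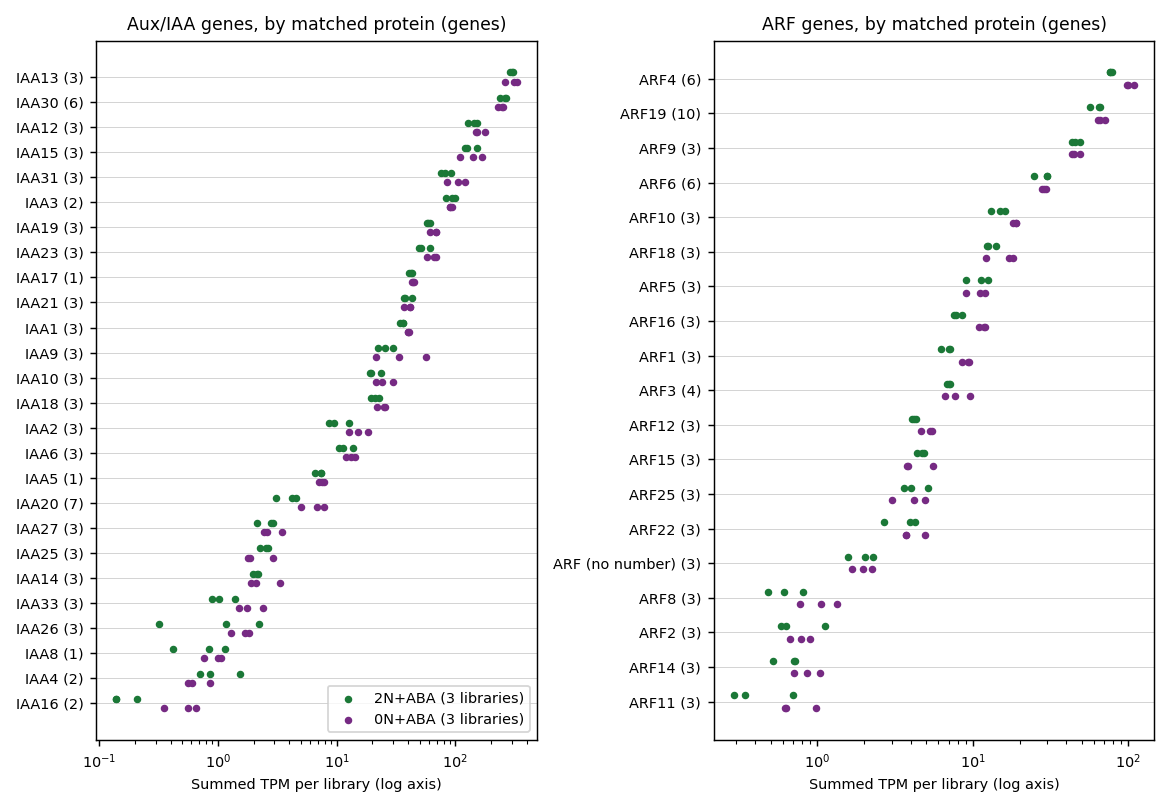
Summed TPM of the genes matched to each protein name in each library, on a log axis, for Aux/IAA names (left) and ARF names (right), with the number of genes in brackets and 2N+ABA points above 0N+ABA points. IAA13 at about 300 TPM and ARF4 at 76.8 TPM in 2N+ABA and 102 TPM in 0N+ABA top their families, and for most names the 2 groups overlap.

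The Aux/IAA gene that fell was the D copy of IAA2. TraesCS3D02G110200 on chromosome 3D had 3.91, 3.97 and 4.48 TPM in 2N+ABA, against 7.16, 7.04 and 8.73 TPM in 0N+ABA. All 3 libraries with nitrate were below all 3 without it, and the lowest 0N+ABA library was 0N+ABA replicate 2. The log2 fold change was -0.84 (SE 0.131, interval -1.14 to -0.54, edgeR adjusted p = 0.0183). The same gene passed by DESeq2 (adjusted p = 0.00107) and without 0N+ABA replicate 2 (edgeR adjusted p = 0.00782). It did not pass without 0N+ABA replicate 1 (adjusted p = 0.0521) or 3 (0.0604), or without 2N+ABA replicate 1 (0.106), 2 (0.0687) or 3 (0.0635), where the log2 fold change was between -0.89 and -0.73.

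The other two IAA2 copies were not called. The B copy, TraesCS3B02G127400, had 4.15, 3.89 and 6.19 TPM in 2N+ABA, against 5.85, 3.97 and 7.15 TPM in 0N+ABA. The A copy, TraesCS3A02G108400, had 1.38, 0.85 and 2.14 TPM in 2N+ABA, against 2.02, 1.77 and 2.52 TPM in 0N+ABA. Both sets of libraries overlapped between the groups. The log2 fold changes were -0.20 (interval -0.74 to 0.34) for the B copy and -0.48 (-1.16 to 0.20) for the A copy. The interval of the A copy holds the -0.84 of the D copy, and that of the B copy does not. The D copy gave 40.7% of the summed TPM of the 3 copies in 2N+ABA and 50.1% in 0N+ABA. Whether the copies differ in their change was not tested, and reads of near-identical copies can be divided wrongly among them.

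Other Aux/IAA genes with small p-values were below the threshold of the test. The B copy of IAA33, TraesCS2B02G534500, had 0.72, 0.82 and 0.63 TPM in 2N+ABA, against 1.03, 1.83 and 1.52 TPM in 0N+ABA. Arabidopsis IAA33 lacks the segment by which auxin receptors seize Aux/IAA proteins. The groups did not overlap, yet the gene was not called (log2 fold change -0.95, SE 0.341, edgeR adjusted p = 0.212). For IAA19 the A copy, TraesCS1A02G390200, averaged 12.7 ± 0.829 TPM in 2N+ABA and 16.2 ± 1.15 TPM in 0N+ABA (edgeR adjusted p = 0.191). The B copy, TraesCS1B02G418400, averaged 16.4 ± 1.16 TPM in 2N+ABA and 19.5 ± 0.913 TPM in 0N+ABA (edgeR adjusted p = 0.423). The D copy of IAA19 was the most abundant at 29.9 ± 2.48 TPM in 2N+ABA and 30.2 ± 4.44 TPM in 0N+ABA, with overlapping groups.

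For IAA10 the B copy, TraesCS6B02G432800, averaged 5.70 ± 0.649 TPM in 2N+ABA and 7.64 ± 1.15 TPM in 0N+ABA (edgeR adjusted p = 0.266). Normalised counts of 8 of the 59 tested Aux/IAA genes were lower in every 2N+ABA library than in every 0N+ABA library, or 13.6%, against 10.8% of all genes. None of the 59 was higher in every 2N+ABA library, against 11.3% of all genes. Without 0N+ABA replicate 2 the counts were 11 lower and 6 higher, against 20.7% and 20.0% of all genes. Leaving out a library makes it easier for groups not to overlap, as the shares of all genes show, and the overlap counts were not rerun without the other libraries. The 3 Aux/IAA genes with the largest upward fold changes and a mean of at least 1 normalised CPM included no called gene, and all 3 were IAA30 genes.

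Aux/IAA genes also varied within the 0N+ABA group, in ways that the nitrate comparison cannot use. The A copy of IAA9, TraesCS6A02G373300, had 11.3, 15.1 and 14.5 TPM in 2N+ABA, against 18.3, 10.5 and 31.4 TPM in 0N+ABA replicates 1, 2 and 3. The B copy, TraesCS6B02G411000, had 4.66, 3.91 and 5.30 TPM in 2N+ABA, against 6.98, 5.05 and 9.39 TPM in 0N+ABA. The D copy, TraesCS6D02G357500, had 6.26, 10.7 and 5.70 TPM in 2N+ABA, against 8.12, 5.90 and 15.3 TPM in 0N+ABA. In the A, B and D copies 0N+ABA replicate 3 was the highest of all libraries. In 0N+ABA replicate 2 each copy lay inside or below the range of 2N+ABA. With all libraries the edgeR adjusted p-values of the A, B and D copies were 0.525, 0.274 and 0.755. Without 0N+ABA replicate 2 they were 0.0653, 0.0505 and 0.374 by edgeR. The log2 fold change of the A copy was -0.50 with all libraries and -0.02 without 0N+ABA replicate 3. For the B copy these values were -0.57 and -0.33, and for the D copy -0.30 and 0.17.

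The second IAA30 set, whose gene numbers follow those of IAA12, split the 0N+ABA libraries in the same way. TraesCS5B02G381900 had 28.5, 37.2 and 28.2 TPM in 2N+ABA, against 40.1, 23.4 and 44.3 TPM in 0N+ABA. TraesCS5A02G378300 had 20.01, 23.5 and 19.7 TPM in 2N+ABA, against 23.6, 14.1 and 28.6 TPM in 0N+ABA. Both genes were lowest of all libraries in 0N+ABA replicate 2. The D copy, TraesCS5D02G388300, did not do so. It had 11.7, 11.6 and 13.99 TPM in 2N+ABA, against 15.9, 16.7 and 13.7 TPM in 0N+ABA, the highest of all in replicate 2. Over the tested Aux/IAA genes, 0N+ABA replicate 2 was the highest or lowest library in 40.7%, against 35.4% of all genes, and 0N+ABA replicate 3 in 44.1%, against 39.0% of all genes.

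**Figure D3:**
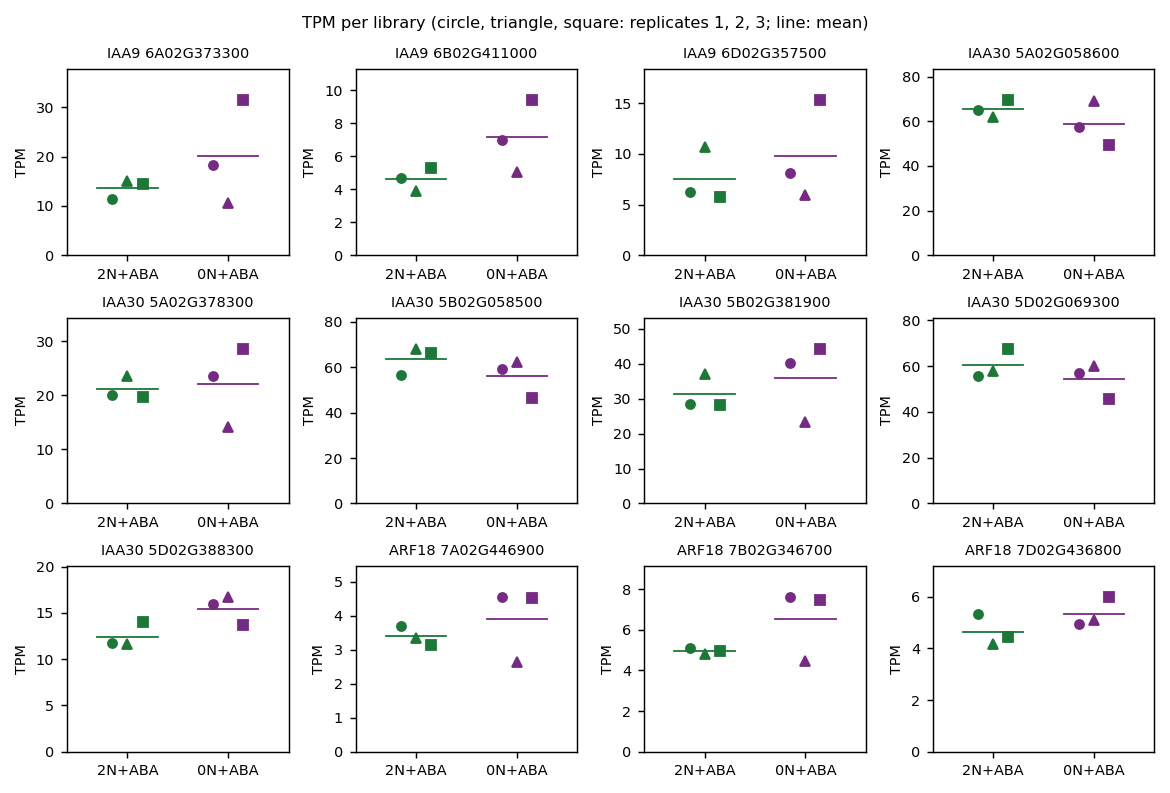
TPM in each library for the genes matched to IAA9, IAA30 and ARF18, with 2N+ABA left and 0N+ABA right; symbols mark replicates 1 (circle), 2 (triangle) and 3 (square) and lines mark group means. In the IAA9 A, B and D copies the triangle is the lowest 0N+ABA point, at 10.5, 5.05 and 5.90 TPM. In the ARF18 B copy at 4.48 TPM it falls below all 2N+ABA libraries.

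Several Aux/IAA genes were at or near the floor of detection in roots. IAA16, IAA26 and IAA8 had no tested gene, and 21 of the 76 Aux/IAA genes averaged under 1 TPM over the 6 libraries. The 7 genes matched to IAA20 sit on chromosomes 7A, 7B and 7D with closely spaced gene numbers, and they summed to 3.95 ± 0.748 TPM in 2N+ABA and 6.54 ± 1.44 TPM in 0N+ABA. Only 2 of these 7 were tested and neither was called. IAA17, IAA5 and IAA8 had 1 gene each in the table, where most names had copies on the A, B and D subgenomes. A copy on another subgenome can carry another name, as protein names were matched gene by gene.

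Among the ARFs, 3 of 19 names held 63.0% of the summed TPM, namely ARF4, ARF19 and ARF9. ARF4 and ARF9 belong with ARF1 to the repressors that no small RNA of the 3 kinds above is known to target in rice. The 12 genes of this class summed to 131, 126 and 132 TPM in 2N+ABA, against 153, 156 and 162 TPM in 0N+ABA. Its median log2 fold change was -0.36, against -0.02 for all genes. None of the 12 was called by edgeR, DESeq2 or limma-voom. By edgeR 7 were lower and 0 higher at an unadjusted p under 0.05, against 7.77% and 8.62% of all genes, a description only since the classes were set after the values had been seen.

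Of these 7 genes, 5 were matched to ARF4. The 6 ARF4 genes lie on chromosomes 3A, 3B and 3D, with 2 genes on each. The highest, TraesCS3D02G434700, had 21.1, 20.3 and 20.5 TPM in 2N+ABA, against 27.0, 25.1 and 30.2 TPM in 0N+ABA. TraesCS3A02G442000 had 16.0, 16.2 and 16.9 TPM in 2N+ABA, against 22.1, 21.1 and 24.3 TPM in 0N+ABA. TraesCS3B02G475800 had 15.7, 15.2 and 15.6 TPM in 2N+ABA, against 19.5, 20.3 and 22.2 TPM in 0N+ABA. In each of these 3 genes the highest 2N+ABA library was below the lowest 0N+ABA library by several TPM, also where 0N+ABA replicate 2 was that lowest library.

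The second ARF4 gene of each chromosome showed the same order at lower levels. TraesCS3B02G486000 had 7.71, 7.32 and 6.81 TPM in 2N+ABA, against 9.94, 9.70 and 10.4 TPM in 0N+ABA. TraesCS3A02G449300 had 7.68, 7.14 and 7.44 TPM in 2N+ABA, against 9.94, 10.1 and 9.68 TPM in 0N+ABA. TraesCS3D02G442000 had 10.3, 9.88 and 8.62 TPM in 2N+ABA, against 11.2, 11.3 and 12.5 TPM in 0N+ABA. The groups did not overlap in any of the 6. The first genes along the chromosomes summed in 2N+ABA to 0.744 times, and the second to 0.769 times, their 0N+ABA sum.

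For ARF4 the log2 fold changes were between -0.41 and -0.21, and all 6 were below 0 in each of the 13 settings tried. Groups that do not overlap make that sign all but certain, so it adds no evidence. The intervals of 5 of the 6 excluded 0, and that of TraesCS3D02G442000 ran from -0.48 to 0.05. With all libraries the edgeR adjusted p-values ran from 0.0742 to 0.420, so no ARF4 gene was called. Without 0N+ABA replicate 2, TraesCS3A02G442000 (adjusted p = 0.0346) and TraesCS3D02G434700 (adjusted p = 0.0479) passed. The 6 genes match the same protein, and their sequences were not compared. They are not taken as independent observations, and how reads were divided among them is uncertain. Their summed level was 76.8 ± 1.47 TPM in 2N+ABA and 102 ± 6.29 TPM in 0N+ABA (SD, n = 3 each). Another division of reads among the 6 would change this sum only through their differing gene lengths.

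The other repressors of this class were ARF9 and ARF1. ARF9 summed to 45.9 ± 2.62 TPM in 2N+ABA and 45.7 ± 3.07 TPM in 0N+ABA. Its log2 fold changes were 0.19 (interval -0.07 to 0.45) on 2B, 0.05 (-0.17 to 0.26) on 2A and -0.03 (-0.27 to 0.21) on 2D. ARF1 summed to 6.78 ± 0.485 TPM in 2N+ABA and 9.06 ± 0.463 TPM in 0N+ABA. Its 3 genes had log2 fold changes of -0.44 on 3D, -0.40 on 3A and -0.25 on 3B, and none was called (edgeR adjusted p = 0.184, 0.203 and 0.467). Genes that mark dividing cells are given beside these values. Of 156 such genes (histone H4 and cyclin-B), 131 were tested and none was called by edgeR. At an unadjusted p under 0.05, 0 were higher and 28 (21.4%) lower, against 8.62% and 7.77% of all genes. Below 0 were 124 of the 131, against 52.3% of all genes, with a median log2 fold change of -0.26. The whole list summed to 9695, 10320 and 9625 TPM in 2N+ABA, against 13970, 11880 and 10690 TPM in 0N+ABA. The 26 cyclin-B genes summed to 392, 367 and 389 TPM in 2N+ABA, against 417, 434 and 429 TPM in 0N+ABA, and the part of dividing cells in the ARF values was not tested.

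**Figure D4:**
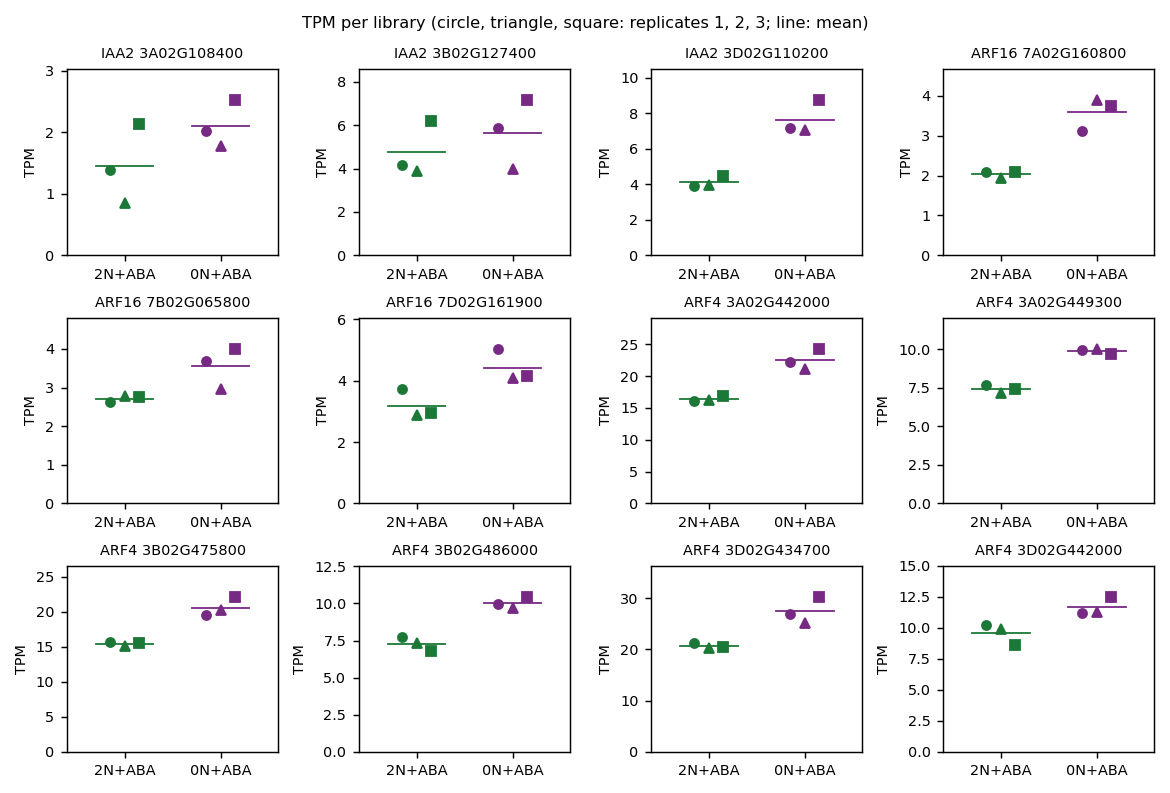
TPM in each library for the genes matched to IAA2, ARF16 and ARF4, with 2N+ABA left and 0N+ABA right; symbols mark replicates 1 (circle), 2 (triangle) and 3 (square), lines mark group means and each axis starts at 0. In all 6 ARF4 panels, in the IAA2 D copy and in the ARF16 A, B and D copies every 2N+ABA library lies below every 0N+ABA library.

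The ARF gene that fell was the A copy of ARF16, an activator that rice needs for its root response to auxin and phosphate. TraesCS7A02G160800 on chromosome 7A had 2.10, 1.94 and 2.10 TPM in 2N+ABA, against 3.12, 3.89 and 3.75 TPM in 0N+ABA. The groups were well apart, and the 2N+ABA libraries were close to each other. The log2 fold change was -0.76 (SE 0.123, interval -1.04 to -0.48, edgeR adjusted p = 0.0212), and DESeq2 gave an adjusted p of 0.00223. It passed without 0N+ABA replicates 1 (adjusted p = 0.0269) and 2 (0.0153). The call was lost when 2N+ABA replicate 1 (0.108), 2 (0.0803) or 3 (0.0942) was left out, and likewise for replicate 3 of 0N+ABA (0.0796), with log2 fold changes from -0.77 to -0.73.

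The D copy of ARF16, TraesCS7D02G161900, had 3.74, 2.88 and 2.94 TPM in 2N+ABA, against 5.04, 4.08 and 4.14 TPM in 0N+ABA. The B copy, TraesCS7B02G065800, had 2.62, 2.77 and 2.75 TPM in 2N+ABA, against 3.68, 2.97 and 4.01 TPM in 0N+ABA. In both copies the TPM of every 2N+ABA library was below that of every 0N+ABA library, though the normalised counts of the B copy overlapped, and neither was called with all libraries (edgeR adjusted p = 0.156 and 0.258). The B copy passed without 0N+ABA replicate 2 (log2 fold change -0.47, adjusted p = 0.0484). The 3 copies together summed to 7.95 ± 0.456 TPM in 2N+ABA and 11.6 ± 0.538 TPM in 0N+ABA. All 3 fitted changes were below 0 in each of the 13 settings, which was all but certain for the A and D copies, whose groups did not overlap.

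ARF19 had the most genes of any ARF name and was the most abundant activator. In rice ARF19 binds auxin-responsive genes and shapes organ form. Of its 10 genes, 6 on chromosomes 7A, 7B and 7D averaged between 6.24 and 13.6 TPM in 2N+ABA and between 6.62 and 16.1 TPM in 0N+ABA, with log2 fold changes from -0.19 to 0.16. The 4 genes on 6A, 6B and 6D lay under 3 TPM in every library but one, which reached 3.06 TPM. Of these 4, TraesCS6D02G102300 had 1.16, 0.76 and 1.06 TPM in 2N+ABA, against 1.64, 1.73 and 1.48 TPM in 0N+ABA (log2 fold change -0.65, SE 0.168, edgeR adjusted p = 0.0942). TraesCS6B02G141300 had 2.12, 1.34 and 1.77 TPM in 2N+ABA, against 2.52, 2.60 and 3.06 TPM in 0N+ABA (log2 fold change -0.61, SE 0.165, edgeR adjusted p = 0.106). In both genes the groups did not overlap, and neither was called in any setting.

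ARF5 and ARF11, the other activators that miR167 does not target, gave no call. The ARF5 gene on 6D, TraesCS6D02G100900, had 7.62, 9.91 and 10.1 TPM in 2N+ABA, against 8.16, 10.2 and 8.86 TPM in 0N+ABA, fully overlapping. ARF11 was hardly expressed, and its 3 genes together reached 0.443 ± 0.224 TPM in 2N+ABA and 0.743 ± 0.205 TPM in 0N+ABA. Only its D copy could be tested, with a log2 fold change of -0.79 and a wide interval from -1.80 to 0.23.

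The activators that miR167 targets in rice included the ARF gene with the largest upward fold change. The A copy of ARF6 on chromosome 7, TraesCS7A02G461700, had 6.12, 4.82 and 6.52 TPM in 2N+ABA, against 4.63, 4.29 and 4.17 TPM in 0N+ABA. Every library with nitrate was higher, but the gene was not called (log2 fold change 0.46, SE 0.117, edgeR adjusted p = 0.0893). The B copy, TraesCS7B02G363100, lay the other way, with 6.26, 4.73 and 6.18 TPM in 2N+ABA against 6.94, 7.45 and 6.87 TPM in 0N+ABA (log2 fold change -0.26, edgeR adjusted p = 0.322). The D copy overlapped between groups, at 5.78 ± 0.591 TPM in 2N+ABA and 5.77 ± 0.413 TPM in 0N+ABA.

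The shares of the 3 ARF6 copies on chromosome 7 differed between the groups. The A copy gave 33.5% of their summed TPM in 2N+ABA and 25.4% in 0N+ABA, and the B copy 33.0% in 2N+ABA and 41.2% in 0N+ABA. These shares were not tested, and reads that fit several copies could be counted to either. The 6 ARF6 genes together summed to 28.2 ± 3.02 TPM in 2N+ABA and 28.7 ± 0.791 TPM in 0N+ABA. Of the same class, ARF12 summed to 4.18 ± 0.0954 TPM in 2N+ABA and 5.15 ± 0.423 TPM in 0N+ABA. ARF25 summed to 4.24 ± 0.796 TPM in 2N+ABA and 4.04 ± 0.955 TPM in 0N+ABA. Over the 12 genes of this class the median log2 fold change was -0.02, with none called.

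The miR160 class holds ARF8, ARF10, ARF18 and ARF22. Its 12 genes summed to 31.6, 30.5 and 33.6 TPM in 2N+ABA, against 40.7, 36.2 and 42.0 TPM in 0N+ABA. Every sum with nitrate was below every sum without it, and the lowest 0N+ABA sum was that of replicate 2. ARF10 and ARF18 were the most abundant of the class. The A copy of ARF10, TraesCS2A02G380300, had 6.05, 6.72 and 6.98 TPM in 2N+ABA, against 9.53, 7.92 and 10.1 TPM in 0N+ABA. The groups did not overlap, and of the 13 settings only the one without 0N+ABA replicate 2 called the gene (edgeR adjusted p = 0.128 with all libraries and 0.0284 without that one). The B copy of ARF18, TraesCS7B02G346700, had 5.09, 4.83 and 4.96 TPM in 2N+ABA, against 7.62, 4.48 and 7.48 TPM in 0N+ABA. Here 0N+ABA replicate 2 was the lowest of all libraries, and the adjusted p by edgeR was 0.427 with it and 0.0163 without it.

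The TAS3 class, ARF2, ARF3, ARF14 and ARF15, was low in these roots. Its 13 genes summed to 13.2, 12.5 and 13.5 TPM in 2N+ABA, against 13.0, 16.9 and 11.97 TPM in 0N+ABA. The highest sum was that of 0N+ABA replicate 2, and the group ratio was 0.936 with it and 1.05 without it. ARF15 showed this most plainly, with 4.66 ± 0.239 TPM in 2N+ABA and 4.37 ± 1.01 TPM in 0N+ABA over its 3 genes. None of the 9 tested genes was called with or without that library. A further 3 genes are named auxin response factor with no number and summed to 1.95 ± 0.355 TPM in 2N+ABA and 1.96 ± 0.280 TPM in 0N+ABA.

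Counted over the family, 16 of 60 tested ARF genes, or 26.7%, had lower normalised counts in every 2N+ABA library than in every 0N+ABA library, against 10.8% of all genes. Higher in every 2N+ABA library were 2 of 60, against 11.3% of all genes. Of the 16, 6 were the ARF4 copies, so the count rests in part on genes that match the same protein and may share reads. Without 0N+ABA replicate 2 the counts were 23 lower and 7 higher, against 20.7% and 20.0% of all genes. By edgeR without that library, 6 of 63 ARF genes fell and 0 rose, against 3.19% lower and 5.19% higher over all genes. The 6 were 2 copies each of ARF4 and ARF16 and 1 copy each of ARF10 and ARF18. Of 60 Aux/IAA genes tested without it, 1 fell and 0 rose, the IAA2 gene above.

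Copies on the A, B and D subgenomes were compared where a name had exactly 1 gene of each on chromosomes of the same number. This gave 17 such sets among the Aux/IAA genes and 16 among the ARF genes. Of the sets that summed to at least 3 TPM, 6 of 13 Aux/IAA sets and 8 of 12 ARF sets had each copy at 25 to 45% of the sum. IAA18 was the least even Aux/IAA set, with 60.9% from the A copy and 5.8% from the B copy. IAA23, which in rice keeps the quiescent centre of the root tip, had 56.0% from its A copy and 15.7% from its D copy. Among the ARFs, ARF12 drew 59.5% from its B copy, and ARF10 drew 12.1% from its B copy.

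Copies often lay on the same side of 0. Of the sets with 3 tested copies, 8 of 13 Aux/IAA sets had all 3 fold changes below 0, 1 had all 3 above 0 and 4 were mixed. Of 12 such ARF sets, 6 were all below, 2 all above and 4 mixed. Reads shared between copies can tie these values together, so they are given as a description. By subgenome, the A, B and D genes gave 36.0%, 31.1% and 32.9% of the Aux/IAA TPM, and 33.5%, 29.4% and 37.1% of the ARF TPM.

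**Figure D5:**
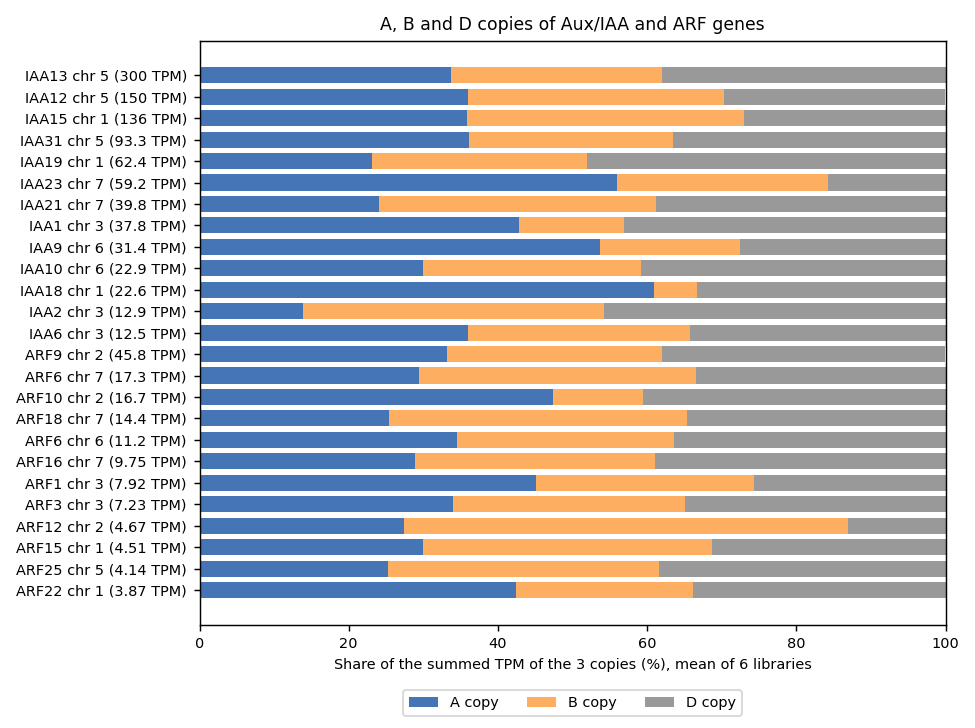
Share of the summed TPM of the 3 copies that came from the A, B and D copy, from mean TPM over 6 libraries, for the 25 sets that summed to at least 3 TPM, Aux/IAA sets above ARF sets. IAA18 and IAA23 draw most of their message from the A copy (60.9% and 56.0%) and ARF12 from the B copy (59.5%), whereas IAA13, ARF9 and ARF3 are close to even.

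The genes that act before and beside the 2 families were listed by protein name. Over 296 such genes, 139 were tested, 3 rose and 0 fell by edgeR, against 1.67% and 0.579% of all genes. DESeq2 called 2 higher and 1 lower, and limma-voom 3 higher and 0 lower. By edgeR at an unadjusted p under 0.05 there were 14 higher and 12 lower, against 8.62% and 7.77% of all genes. The auxin receptors gave 1 rise among 17 genes. TraesCS4D02G301800, matched to a TIR1-like protein, averaged 10.6 ± 1.92 CPM (depth-scaled counts with TMM factors) in 2N+ABA and 4.14 ± 0.228 CPM in 0N+ABA (log2 fold change 1.35, SE 0.160, edgeR adjusted p = 0.0054). The median log2 fold change of the receptors was 0.01. None of the 12 tested TOPLESS genes was called by edgeR, with 0 at an unadjusted p under 0.05 and a median of -0.08.

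SAUR genes are quick targets of auxin that promote cell expansion. The list searched for also took in names that began with "Auxin-induced protein". Whether all of these are SAUR genes was not checked. Of 22 tested genes of the list, 2 rose and 0 fell by edgeR, against 1.67% and 0.579% of all genes. At an unadjusted p under 0.05, 8 were higher and 1 lower, against 8.62% and 7.77% of all genes. The median log2 fold change of this list was 0.40. TraesCS7B02G318200, matched to SAUR50, averaged 8.20 ± 1.83 CPM in 2N+ABA and 3.46 ± 1.01 CPM in 0N+ABA (edgeR adjusted p = 0.0401). TraesCS6A02G115600, matched to auxin-induced protein X10A, averaged 3.80 ± 0.223 CPM in 2N+ABA and 2.14 ± 0.123 CPM in 0N+ABA (edgeR adjusted p = 0.0408). The X10A gene was not called by DESeq2 (adjusted p = 0.0562), and by edgeR it passed without 0N+ABA replicate 2 (0.0376) but with none of the other 5 libraries left out (0.106 to 0.146). The SAUR50 gene lost its call without 2N+ABA replicate 1 (0.154), 2 (0.127) or 3 (0.0531) and without 0N+ABA replicate 3 (0.129). Of the 118 genes of this list, 96 had too few counts to be tested.

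Auxin carriers and enzymes gave no call by edgeR with all libraries. Median log2 fold changes were -0.23 over 17 tested PIN efflux carriers, -0.14 over 9 AUX/LAX influx carriers and 0.04 over 10 PILS carriers. They were -0.10 over 20 GH3 enzymes and 0.00029 over 17 YUCCA enzymes, which make auxin. GH3 enzymes attach amino acids to auxin, though the names searched for also took in forms that act on jasmonate. TAA enzymes, which act before YUCCA, had -0.11 over 8 genes and DAO oxidases, which break auxin down, -0.0022 over 7 genes. The smallest adjusted p among them was that of a PIN2 gene, TraesCS7D02G478800, at 13.99 ± 0.837 CPM in 2N+ABA and 19.01 ± 0.453 CPM in 0N+ABA (edgeR adjusted p = 0.0616). DESeq2 called another PIN2 gene lower, TraesCS7B02G398100 (adjusted p = 0.0334), which edgeR did not call (0.0729). By edgeR at an unadjusted p under 0.05, 0 PIN genes were higher and 4 lower, and 1 AUX/LAX gene was higher and 3 were lower. Over all genes 8.62% were higher and 7.77% lower at that level. Without 0N+ABA replicate 2, 3 of 10 AUX/LAX, 2 of 17 PIN and 2 of 21 GH3 genes fell by edgeR and 1 of 11 PILS genes rose. In that setting 3.19% of all genes fell and 5.19% rose.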

How the data were processed

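RNA from roots was poly(A)-selected, fragmented and primed with random hexamers, with no strand information or molecular identifiers recorded, per the labels' protocols. HISAT and Bowtie2 are named, without a role, per the submitters' processing notes. Counter, build and annotation: not given in the sources used here. As deposited, the authors' table holds estimated counts per gene and library, not normalised, and TPM, scaled by length and depth, per the file headers. Another 2 columns belong to groups outside the 6 samples and were not used. Chromosomes come from the gene IDs, of which 0 matched the reference gene table at hand, so no coordinates or sequences are given.

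Estimated counts were rounded and tested over the whole table with edgeR 4.0.16 in R 4.3.3 (filterByExpr, TMM, glmQLFit, glmQLFTest), 2N+ABA against 0N+ABA, without covariates, with Benjamini-Hochberg adjustment over 53862 genes. These held 99.61% of the counts. A gene was called, and said to rise or fall, at an adjusted p under 0.05. Standard errors and 95% intervals were derived from the F statistic and its degrees of freedom, and the fit was tested on simulated data. Groups were compared for overlap on CPM, depth-scaled counts with TMM factors. Alternatives were DESeq2 1.42.0, limma-voom 3.58.1, RLE size factors, another filter and none, the replicate number as a block, and each library left out.

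Named members were the called genes, the 6 most abundant, the 6 with the smallest p and the 3 largest changes each way with a mean of at least 1 CPM in each family, with their A, B and D copies, and 2 genes per pathway list. Other members in the text were chosen after their values were seen. Members, lists and classes were chosen with earlier results of these data known. Replicates of a group differed by more than sampling noise. Overlap counts and summed TPM without 0N+ABA replicate 2 were added after seeing the data.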

Additional observations from a re-analysis of the deposited data

How the results depend on the processing

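Counts of 0 higher members held in both families under all 12 alternatives. The 1 lower Aux/IAA gene and the 1 lower ARF gene were 1 each under DESeq2, limma-voom, RLE size factors and both other filters. With the replicate block the lower ARF genes were 0 and the lower Aux/IAA genes 1. Leaving out one library gave 0 to 1 lower Aux/IAA genes and 0 to 6 lower ARF genes, the 6 without 0N+ABA replicate 2. Other auxin genes gave 1 to 4 higher and 0 to 7 lower with one library left out. DESeq2 gave 2 higher and 1 lower of them, and the replicate block 2 higher. Over all genes, leaving out one library gave 251 to 2852 higher and 32 to 1755 lower. DESeq2 called 1519 higher and 743 lower, and the replicate block 588 and 135. ARF16 on 7A had an adjusted p of 0.0643 with the block, and IAA2 on 3D 0.0454. The replicate numbers did not pair the libraries, as same-numbered deviations correlated at 0.0757, -0.229 and -0.217. Among 59 named tested members no call reversed, and 16 members with no call changed sign in some setting. The cause of these changes was not tested. Without 0N+ABA replicate 2, genes above all 0N+ABA libraries in normalised counts were 6 Aux/IAA and 7 ARF (20.0% of all genes), against 0 and 2 with it (11.3% of all genes). Depth limits the low members, since 28 of 147 could not be tested.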
